A study of Homo sapiens with 3 samples.

Results

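The interferon response genes examined here are IFITM1, IFITM2, IFITM3, STAT2, IRF1, IRF9, ISG15, IFIT1 and MX1, a list of 9 interferon-induced genes and factors chosen by name. All probe sets that name only 1 of these genes in the platform annotation were taken, and 8 of the 9 genes had such a probe set, 1 each, among the 19064 probe sets of the array that name 1 gene. No probe set in that annotation names STAT2, whose level was not analysed here. RNA came from RH30, an established human cell line of alveolar rhabdomyosarcoma, a childhood muscle-type tumour driven in most cases by a PAX-FOXO1 fusion protein. Cells were untreated, or had received at 10 µM a mutated peptide nucleic acid (PNA, in which nucleobases sit on a peptide-like chain that replaces the sugar-phosphate backbone) described as devoid of activity, or at 10 µM a PNA directed against the MYCN gene. RNA was taken at 12 hours from 1 culture and 1 array per condition, so values carry no replicate error, differences are untested, and the labels do not say whether cultures were separate. All conditions share 1 cell line, and the array called untreated carries a source name that says mutated PNA, so any direction between the control arrays rests on its title.

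Interferons are secreted in response to foreign nucleic acid, which cells recognise through sensors of the RIG-I and Toll-like receptor families and of cytosolic DNA. The receptors of type I interferon signal through JAK kinases to a complex of STAT proteins and IRF9, which binds the interferon-stimulated response element (ISRE) of its target genes. ISG15, IFIT1 and MX1 are standard targets of that route, IRF1 is a standard target of interferon-gamma, and the IFITM genes answer both kinds of interferon and are also expressed in many cells without it. The comparison asks whether the PNAs, as nucleic acid analogues, went with an interferon pattern or with higher IFITM signals alone.

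The promoter letters below are shown because they hold ISRE-like matches close to the start sites of 2 IFITM genes, which were called. They also hold them for ISG15, which was not called, and IFIT1, which was too dim to be counted. They are the 130 bases before the annotated start site, from the RefSeq promoter windows of GRCh38.p14, written 5′ to 3′ on the gene's own strand. Capitals mark matches to GAAANNGAAA on either strand, an ISRE-like motif.
IFITM1, chr11:313910-314039, plus strand: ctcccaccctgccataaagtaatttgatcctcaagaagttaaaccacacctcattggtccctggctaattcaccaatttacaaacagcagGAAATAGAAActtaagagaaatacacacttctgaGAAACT
IFITM3, chr11:320861-320990, minus strand: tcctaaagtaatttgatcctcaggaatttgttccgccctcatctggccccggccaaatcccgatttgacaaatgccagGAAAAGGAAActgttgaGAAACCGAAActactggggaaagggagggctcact
ISG15, chr1:1013367-1013496, plus strand: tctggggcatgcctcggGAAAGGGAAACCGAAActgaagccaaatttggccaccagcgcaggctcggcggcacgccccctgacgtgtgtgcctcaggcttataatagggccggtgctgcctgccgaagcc
IFIT1, chr10:89392493-89392622, plus strand: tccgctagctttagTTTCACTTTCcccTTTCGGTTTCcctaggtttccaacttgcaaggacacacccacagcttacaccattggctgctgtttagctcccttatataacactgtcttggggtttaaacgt
Counting the start site as 0, IFITM1 had matches from -40 to -31 and from -6 to 3, the second of which runs past the printed stretch. IFITM3 had matches from -52 to -43 and from -35 to -26. Those of ISG15 overlapped each other, from -113 to -104 and from -107 to -98, and those of IFIT1 lay on the opposite strand, from -116 to -107 and from -103 to -94. Of the 35116 promoter windows of 300 bases, 3.57% hold the motif. MX1, which has 3 windows, held it once in each of 2 of them, from 11 to 20 after one start site and from -196 to -187 before another. IRF1 and IRF9 held none in theirs. Windows of IFITM2 were not used here. The gamma-activated motif TTCNNNGAA, present in 7.66% of windows, matched in IRF1 from -124 to -116, in IRF9 from -63 to -55 and in IFITM1 from -12 to -4, where it overlaps the second ISRE-like match by 3 bases. It also matched in 1 window of MX1, from -189 to -181, overlapping the ISRE-like match there. A match describes the letters only, and the arrays hold no measurement of binding.

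The 3 IFITM genes were the members that stood at least 1.5-fold higher with the anti-MYCN PNA than in both controls, while IRF1 was high against one control, IRF9 and ISG15 differed less and IFIT1 and MX1 were at or near the floor of the assay. Of the standard interferon targets, ISG15 was not called on either PNA array, and IFIT1 and MX1 were too dim to enter the counts. Signals are linear probe set intensities, each array scaled to a common trimmed mean of 500.2, and signals under 23.4 were set to that floor before log2. A gene entered the counts when its mean signal over the 3 arrays was at least 117.1, which 6 of the 8 measured members and 6745 genes of the array did. Differences of at least 1.5-fold (0.585 on the log2 scale) from both controls in the same direction are counted as called, with no p-value. All probe sets for bacterial spike RNAs added before labelling, 24 in number, were lowest of all on the array with the anti-MYCN PNA, with a median ratio of 0.382 to mutated PNA. The targeted gene, MYCN, read 3313 (untreated), 2803 (mutated PNA) and 2202 (anti-MYCN PNA). The part of this spike difference in the results was not tested.

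**Figure D1:**
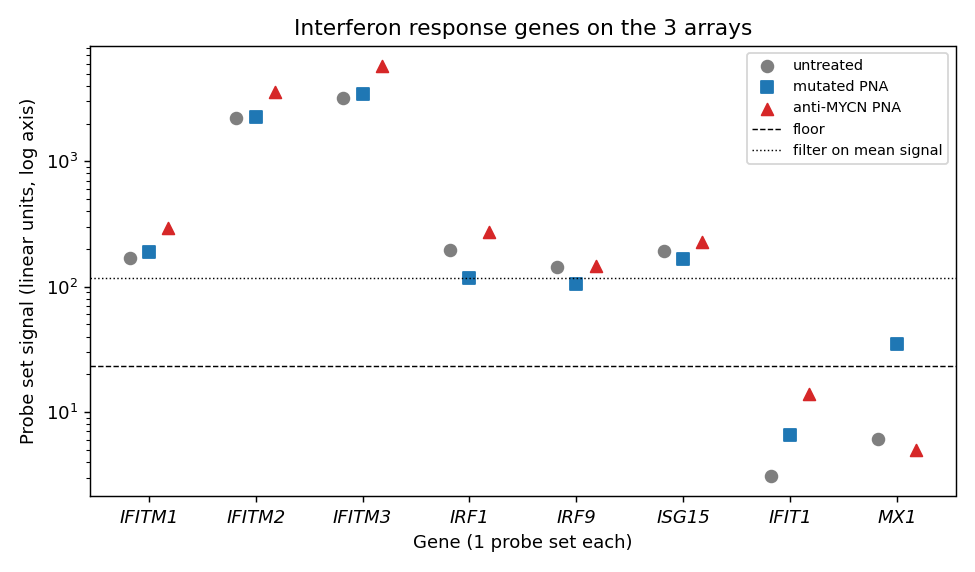
Signal of each member's probe set (linear units on a log axis) on the untreated, mutated PNA and anti-MYCN PNA arrays, 1 point per array. The dashed line is the floor of 23.4 and the dotted line the filter of 117.1. The IFITM genes are highest on the anti-MYCN PNA array, and IFIT1 and MX1 lie near or under the floor.

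IFITM3, which encodes a small membrane protein that blocks entry of enveloped viruses from endosomes, gave a signal of 3217 (untreated), 3415 (mutated PNA) and 5711 (anti-MYCN PNA). The control arrays lay close together and the anti-MYCN PNA array above both, 1.67-fold over mutated PNA and 1.78-fold over untreated. In its signal class of 675 genes, 95% of the control differences were within 0.28 (log2), and 4 genes including IFITM3 stood as far above both controls. IFITM2, a close paralogue with a similar role, read 2195, 2247 and 3543 in the same order. That put it 1.58-fold over mutated PNA and 1.61-fold over untreated, and 16 of the 674 genes of its class were as high. In that class 95% of control differences were within 0.37.

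IFITM1, the paralogue found mainly at the cell surface, read 168.9 (untreated), 189.0 (mutated PNA) and 294.8 (anti-MYCN PNA). It was 1.56-fold over mutated PNA and 1.75-fold over untreated. At this lower signal the controls of 95% of 674 genes differed by up to 0.72, more than the log2 difference of 0.64 from IFITM1 to its nearer control, and 72 genes of the class were as high. Mutated PNA differed from untreated by log2 values of 0.16, 0.03 and 0.09 for IFITM1, IFITM2 and IFITM3. The larger differences thus lay between the anti-MYCN PNA array and both control arrays. Which control array had no PNA rests on its title, and the part of the spike difference was not tested.

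The IFITM probe sets are not independent readings. Those of IFITM2 and IFITM3 carry the suffix _x_at and that of IFITM1 the suffix _s_at, which mark probes shared with other transcripts, and no other probe set names 1 IFITM gene alone. RNA of 1 of the 3 genes could therefore contribute to the signals of the others. Their genes also lie side by side on chromosome 11. Of the 11 nearest genes past the filter, 1 on one side and 10 on the other, 10 were higher than both controls by any amount, as were 47.9% of all genes, and 1, RASSF7, was called, a share near the 8.27% of all genes. The neighbours had a median of 0.41 for the log2 difference between anti-MYCN PNA and the control mean, from 0.10 for TALDO1 to 0.88 for PTDSS2, against 0.06 over all genes. The corresponding values of IFITM1, IFITM2 and IFITM3 were 0.72, 0.67 and 0.79. The median of all genes depends on signal. By signal class it was 0.23 in the lowest, 0.17 and 0.16 in the next, and from -0.04 to 0.13 in the others. Most of the neighbours lay in the lower classes, for which 0.06 is a low yardstick, but 0.41 was above the median of every class. Of the brighter neighbours, HRAS and RNH1 lay at 0.48 and 0.33 in a class with a median of -0.04. TALDO1 lay at 0.10 in a class with a median of 0.07. The part of the chromosome region was not tested.

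Among the factors, IRF1 set the PNA arrays apart from each other. IRF1, a transcription factor induced by interferon-gamma and inflammatory signals, read 197.6 (untreated), 117.1 (mutated PNA) and 270.3 (anti-MYCN PNA). Untreated lay between the PNA arrays, with mutated PNA lower by a log2 difference of -0.75 and anti-MYCN PNA higher by 0.45. Anti-MYCN PNA was thus 2.31-fold over mutated PNA and 1.37-fold over untreated. The controls of its class differed by up to 0.72 in 95% of genes, and IRF1 was among the 28 of 674 genes at or beyond its own control difference. IRF9, the DNA-binding partner in the complex that binds the ISRE, read 143.7, 104.7 and 145.9, so the anti-MYCN PNA array matched untreated within a log2 difference of 0.02 and mutated PNA was the low one. The control range of its class was 0.94, wider than every difference of IRF9.

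Of the 3 standard interferon targets, ISG15 was not called in either direction, and IFIT1 and MX1 did not pass the filter. ISG15, a ubiquitin-like modifier and one of the transcripts most strongly induced by type I interferon, read 194.0 (untreated), 166.2 (mutated PNA) and 228.5 (anti-MYCN PNA). It was 1.18-fold over untreated and 1.37-fold over mutated PNA, inside the control range of 0.72 of its class, and 242 of 674 genes of that class were as high. IFIT1, which binds viral RNA that lacks the host's cap modification, read 3.1, 6.6 and 13.9, under the floor on all 3 arrays, so no fold is given. MX1, a GTPase that restricts influenza and other viruses, read 6.1, 35.1 and 5.0, under the floor on 2 arrays and under the filter on all. Its highest value was on the mutated PNA array, 1.5-fold over the untreated value raised to the floor.

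Read against all genes, 3 of 6 members past the filter were called above both controls, where 8.27% of 6745 genes were, and 0 of 6 below, where 7.37% were. The 3 are neighbouring paralogues with probes that may be shared, and they were picked out with earlier results known, so the count does not stand for 3 separate observations. With arrays scaled to a common median, which lowers the median of all genes from 0.06 to -0.13, the IFITM genes still lay above both controls but 0 were called, where 3.77% of genes were. A pattern of both PNAs, with both PNA arrays at least 1.5-fold above untreated, held for 0 of 6 members and 1.35% of genes, and both below for 0 of 6 and 0.549%. In mutated PNA against untreated, 0 of 6 members were called higher, as were 2.40% of genes, and 1 of 6 lower, IRF1, as were 2.27%.

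**Figure D2:**
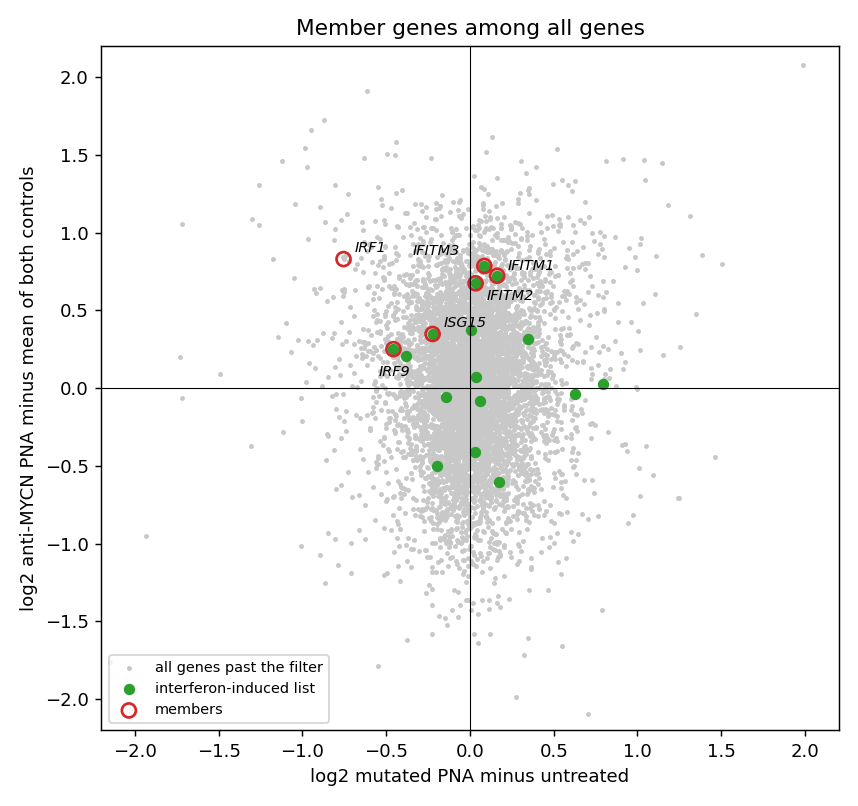
Log2 difference between anti-MYCN PNA and the mean of both controls against that of mutated PNA to untreated, for the genes past the filter (grey), the interferon-induced list (green) and the members past the filter (red circles). The axes end at 2.2, which leaves out 5 genes. The IFITM genes lie near 0 on the horizontal axis and high on the vertical one, and IRF1 lies to the left.

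By likeness, the 5 genes whose log2 differences of anti-MYCN PNA to each control lay nearest to those of IFITM3 were MAPK7, HDAC6, WDR55, MAP3K6 and NME4. Their distances ranged from 0.00091 to 0.035 on the log2 scale, over 3 arrays. None of them is on the interferon lists used here. IFITM1 ranked 61 and IFITM2 ranked 160 in the same order, at distances of 0.10 and 0.16, and ISG15 ranked 1768. MAPK7, the kinase ERK5, read 880.4 (untreated), 935.2 (mutated PNA) and 1564 (anti-MYCN PNA).

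A wider list of 60 interferon-induced genes placed the IFITM values among their pathway. Of these, 52 had a probe set of their own and 16 passed the filter. The genes called above both controls were IFITM1, IFITM2 and IFITM3, 3 of 16, and 0 were called below, where 8.27% and 7.37% of all genes were. The list median of anti-MYCN PNA over the control mean was 0.14 on the log2 scale, and 0.02 over the 13 genes left without the IFITM genes, against 0.06 over all genes. Of those 13 genes, 6 lay above both controls by any amount and 4 below, where 47.9% and 37.6% of all genes did, and under median scaling UBE2L6, LGALS3BP, TRIM21 and IRF9 no longer lay above. ADAR, which edits double-stranded RNA, was the furthest above after the IFITM genes, at 3480 after anti-MYCN PNA against 2680 (untreated) and 2690 (mutated PNA). IFI16, a DNA sensor, was the furthest below at 485.8 against 693.6 and 783.7. PLSCR1, an interferon-induced scramblase, read 645.8 against 977.5 and 852.7. IFI44 lay below both by -0.39, and EIF2AK2, the kinase PKR that is activated by double-stranded RNA, by -0.05.

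No gene of the wider list past the filter had both PNA arrays at least 1.5-fold above untreated, where 1.35% of all genes did. PML, an interferon-induced nuclear body protein, and ZC3HAV1, an antiviral zinc finger protein, were called above untreated on the mutated PNA array, by log2 differences of 0.63 and 0.79, with 155.7 against 100.7 and 167.7 against 96.7. They were 2 of the 16 list genes past the filter, where 2.40% of all genes were called so, and both lie in the class with a control range of 0.94. Their anti-MYCN PNA signals of 121.8 and 129.5 lay between those of the controls. PML had 8 probe sets, of which 2 passed the filter and the brighter was used here. The other of the 2 read 87.0 (untreated), 37.7 (mutated PNA) and 229.2 (anti-MYCN PNA), so the probe sets disagreed on which array was highest. With the median over both, mutated PNA was below untreated by -0.29 and anti-MYCN PNA was above both controls by 0.84. That would call PML as the fourth gene of the list next to the IFITM genes, but the call leans on the filter. The direction of PML thus depends on the probe set.

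Most interferon-induced genes were dim in these cells. Of the 36 genes of the list that did not pass the filter, 8 were under the floor on all 3 arrays, among them IFIT1. By the same rule 9 of these 36 genes were called above both controls and 3 below, where 20.8% and 5.04% of all 5218 genes under the filter were. The 9 were IFIT3, OAS2, IFI35, USP18, HERC6, TRIM14, BST2, XAF1 and SP110. IFIT3, a partner of IFIT1, read 10.2 (untreated), 7.2 (mutated PNA) and 75.7 (anti-MYCN PNA), and BST2, the tethering protein tetherin, read 51.7, 58.6 and 113.5. Those below were IFIT5, PARP12 and SP100. The share above both controls is thus near that of dim genes as a whole.

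Interferons and their sensors gave few signals past the filter. All 14 measured interferon genes were under it, and 5 were under the floor on all arrays. By the rule for dim genes 4 of the 14 were called above both controls, where 20.8% of dim genes were, and 0 below. The 4 were IFNA2, IFNA10, IFNA16 and IFNW1, type I interferons, whose controls all lay under the floor and which read 43.3, 63.4, 42 and 57.7 on the anti-MYCN PNA array. IFNB1 read 2.8, 2.3 and 25.8 and IFNG 13.0, 9.5 and 27.6 in untreated, mutated PNA and anti-MYCN PNA cells. Of 25 nucleic acid sensors and their adaptors with a probe set, 9 passed the filter, with a median of -0.08. In either direction 0 were called, where 8.27% of all genes were above and 7.37% below. MYD88, the adaptor of most Toll-like receptors, lay above the nearer control by 0.36 and IRF3, which switches on interferon-beta, by 0.28. MAVS, the adaptor of the RIG-I family, lay below it by -0.37. TBK1, the kinase of IRF3, read 526.3 after anti-MYCN PNA against 604.6 (untreated) and 508.8 (mutated PNA). RIGI itself read 63.3, 46.7 and 61.5 and IFIH1 2.1, 1.5 and 3.0, both under the filter.

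Of the receptor chains and signalling proteins, 1 of 13 genes was called above both controls and 1 below, near the 8.27% and 7.37% of all genes. SOCS1, the feedback inhibitor of JAK kinases, read 73.8 (untreated), 118.6 (mutated PNA) and 214.5 (anti-MYCN PNA), and passed the filter through its anti-MYCN PNA signal. It was the gene of this list past the filter with both PNA arrays above untreated by 1.5-fold or more, as were 1.35% of all genes. SOCS3, a related inhibitor under the filter, read 23.8, 73.7 and 134.2, with both PNA arrays above untreated by log2 differences of 1.63 and 2.50, a pattern that 6.77% of dim genes had at 1.5-fold. The other 3 probe sets of SOCS1 were dimmer, and the brightest of them read 61.9, 72.1 and 71.9. PTPN11, the phosphatase SHP-2, read 2378 against 4089 and 4369, whereas 2 of its other 4 probe sets read higher after the anti-MYCN PNA than after the mutated one, such as 607.0 against 478.3. The interferon-gamma receptor chains IFNGR1 and IFNGR2 read 405.4 against 565.3 and 454.0, and 1205 against 1260 and 1084. The type I chain IFNAR2 read 457.7 against 491.4 and 576.4, and IFNAR1 was under the filter. JAK1 read 1367 against 1330 and 1386, TYK2 lay above the nearer control by 0.34 and PIAS1 below it by -0.38. Of the 5 measured genes of this list under the filter, 2 were called above both controls, SOCS3 and USP18. In the other direction 1 was called, JAK2, at 20.7 against 65.3 and 60.1. The shares over all dim genes were 20.8% and 5.04%.

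All 6 genes of the IRF and STAT families past the filter lay above both controls by any amount, as did 47.9% of all genes, and 0 were called, against 8.27%. They stood above by differences to the nearer control from 0.02 for IRF9 to 0.54 for STAT6, the interleukin-4 factor. STAT6 read 332.6 (untreated), 371.6 (mutated PNA) and 541.2 (anti-MYCN PNA). The other 3 were IRF3, STAT3 and STAT5B, next to IRF1 and IRF9, with nearer-control differences of 0.28, 0.06 and 0.28. IRF9 no longer lay above both under quantile normalization, nor IRF9 and STAT3 under median scaling. Of the 7 measured genes of these families under the filter, 3 were called above both controls, IRF4, IRF5 and IRF8, and 0 below. The shares over all dim genes were 20.8% and 5.04%. Of the list of NF-kB and inflammatory genes, the 6 past the filter were subunits and inhibitors of NF-kB. Of these 0 were called, where 8.27% of all genes were above and 7.37% below. The 13 other measured genes of the list, among them its cytokines and chemokines, were under the filter. By the rule for dim genes 1 of the 13 was called above both controls, IL1B, and 1 below, CXCL8. Of dim genes as a whole 20.8% and 5.04% were. Among the 6 past the filter, RELA, NFKBIA and NFKBIE lay above the nearer control by 0.45, 0.41 and 0.31, and NFKB2 below it by -0.32.

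Of the interferon-gamma and antigen presentation list, 4 of 9 genes past the filter were called above both controls and 0 below, where 8.27% and 7.37% of all genes were. The list median over the control mean was 0.83, against 0.06 over all genes and 0.23 over those of the lowest signal class. That count leans on the filter, since SOCS1 and HLA-F passed it through their anti-MYCN PNA signal and had to stand high. With the filter put on the mean of the controls, chosen after seeing the data, 2 of 7 genes, TAPBP and PSME1, were called, where 7.23% of 6664 genes were. TAPBP, which loads peptides onto MHC class I molecules, read 136.5 (untreated), 141.9 (mutated PNA) and 275.0 (anti-MYCN PNA). PSME1, a subunit of the proteasome activator PA28, read 829.2, 843.8 and 1524. HLA-F, a non-classical MHC class I gene measured by an _x_at probe set, read 100.9, 94.5 and 179.6. The fourth was SOCS1, given above. PSMB10, an immunoproteasome subunit, read 96.4, 157.3 and 214.6. With SOCS1 it made 2 of 9 genes with both PNA arrays at least 1.5-fold above untreated, where 1.35% of all genes were. Mutated PNA lay above untreated by 0.68 for SOCS1 and 0.71 for PSMB10, inside the control range of 0.94 of their class. By any amount 8 of the 9 genes lay above both controls and 1 below, where 47.9% and 37.6% of all genes did. The 1 below was B2M, the invariant chain of MHC class I and a standard interferon target. It lay lower than both controls by -0.13 at 7630 against 8367 and 8511. With the median over probe sets B2M went to 0 against the nearer control, as did WARS1, which otherwise lay above it by 0.22. Of the 14 genes of this list under the filter, 4 were called above both controls and 0 below, where 20.8% and 5.04% of dim genes were. IRF8, a transcription factor of blood cells, read 40.7 (untreated), 32.2 (mutated PNA) and 118.6 (anti-MYCN PNA), and CIITA, the master regulator of MHC class II, read 36.1, 9.3 and 76.0. TAP1 and TAP2, the chains of the peptide transporter, read 17.9, 9.6 and 49.2, and 57.0, 82.2 and 165.1. CXCL10, PSMB8 and GBP1, sensitive targets of interferon-gamma, were among those not called, at 4.8, 9.0 and 22.7, at 2.2, 2.7 and 3.3, and at 24.4, 17.9 and 6.3 on the untreated, mutated PNA and anti-MYCN PNA arrays. CXCL10 and PSMB8 lay under the floor on all arrays and GBP1 on both PNA arrays, so they could not be called above.

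**Figure D3:**
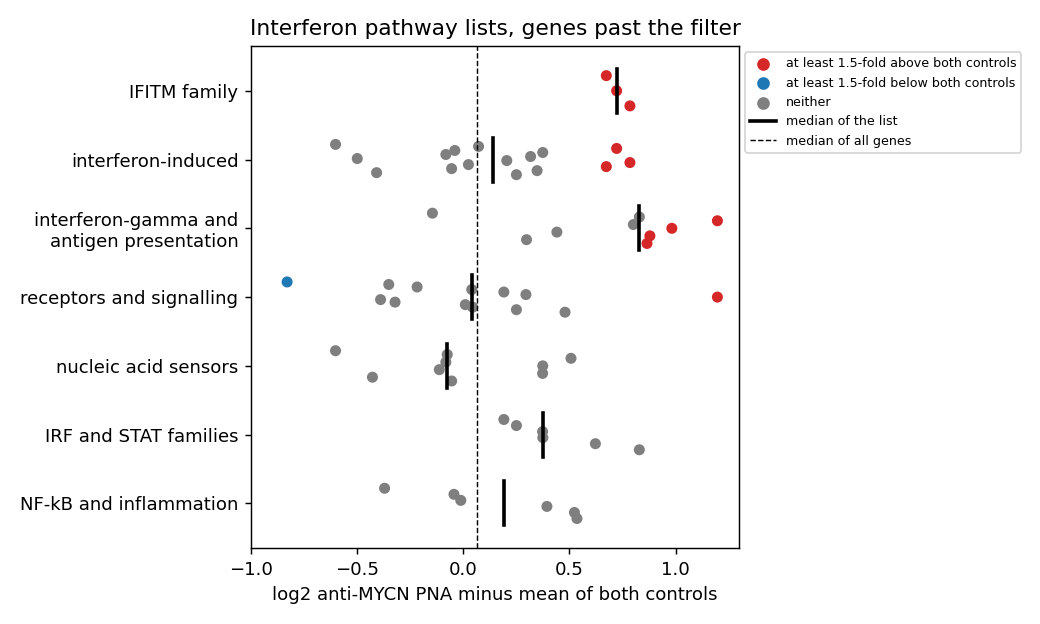
Log2 difference between anti-MYCN PNA and the mean of both controls for each gene past the filter, by list. Red points are called above both controls, blue points below, black bars mark list medians and the dashed line the median of all genes, 0.06. The interferon-induced list has its red points at the IFITM genes, and the interferon-gamma list has 4, of which SOCS1 and HLA-F passed the filter through the anti-MYCN PNA array.

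The cells carried the markers of their muscle lineage. Of 13 measured markers 8 passed the filter, with MYOD1, the myogenic master factor, at 6715, 6265 and 7834 in untreated, mutated PNA and anti-MYCN PNA cells. Summed over the list, signals were 35106, 35798 and 47631 in that order. A large part of each sum was 1 gene, ACTC1, at 17091, 19864 and 27505. Not every marker rose, and CHRND and CHRNG, both under the filter, were lowest on the anti-MYCN PNA array. Among 18 measured leukocyte markers, cells that could carry interferon-induced transcripts, 1 passed the filter, NCAM1, which the muscle list also holds, and 6 were under the floor on all arrays. The leukocyte defining marker PTPRC read 1.5, 3.6 and 34.0. The list summed to 1941, 1953 and 2336, of which NCAM1 gave 1475, 1651 and 1795. None of 8 endothelial markers, 1 of 8 epithelial markers (KRT18) and 2 of 10 fibroblast markers (COL3A1 and FBLN1) passed it. Summed signals were 99.6, 160.8 and 235.9 for the endothelial list, 889.1, 549.3 and 765.8 for the epithelial list and 764.7, 900.1 and 1066 for the fibroblast list. The part of other cells in the results was not tested.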

How the data were processed

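The authors deposited 1 signal intensity per probe set and array on a linear scale, and the submitters' processing notes name MAS5 and GCOS. MAS5 scales each array by 1 factor, so it does not align the arrays' distributions. Its parameters and the scanner files were not used here. Genes were named from GEO's platform annotation, with symbols updated through RefSeq. The arrays were brought to the same 2% trimmed mean, signals below the pooled 25th percentile (23.4) were raised to it, values were put on the log2 scale, those with a mean under the pooled 50th percentile (117.1) were set aside, and a gene was read by its brightest probe set. No test was possible with 1 array for each condition. Control ranges are the 95% point of the absolute control difference in each of 10 classes of mean signal. Rules were tested on simulated data. The members and gene lists were chosen with earlier results of these data known. Named were the members, genes called in each list or, with fewer than 4, those furthest from both controls, and the 5 genes nearest IFITM3. Named too were the IRF, STAT, interferon receptor and JAK genes past the filter. The other genes named (the dim genes of the lists, chromosome neighbours, TBK1, B2M, WARS1, HLA-E, PML, ZC3HAV1, PSMB10, EIF2AK2, SOCS3) were chosen after their values were seen. Alternatives were other scalings, filters, floors, a 2-fold threshold and other probe set choices. A gene's difference was taken as moved by an alternative when it shifted by at least the standard deviation of the control difference, and a list median when it shifted by at least 0.1, limits set after the data were seen. Python 3.11.15, numpy 2.4.6, pandas 2.3.3 and matplotlib 3.10.9 were used.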

Additional observations from a re-analysis of the deposited data

Results flagged for a closer look

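Probe sets that name a member together with another gene stayed outside the comparisons, and both had their highest signal with the anti-MYCN PNA. The one shared by IFITM1 and IFITM2 read 215.8 (untreated), 262.6 (mutated PNA) and 293.9 (anti-MYCN PNA), a log2 difference of 0.16 to mutated PNA, smaller than the differences of the probe sets that name IFITM1 or IFITM2 alone (0.64 and 0.66). The one shared by IRF9 and RNF31, neighbouring genes, read 204.1, 202.8 and 258.6.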

How the results depend on the processing

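Median scaling moved the median of all genes from 0.06 to -0.13. Under it 0 members and 0 genes of the interferon-induced list were called above both controls, the list median was -0.051, and 3.77% of all genes were called. Of the interferon-gamma list 4 of 9 genes stayed called under it, with a list median of 0.64. They were PSME1, TAPBP, SOCS1 and HLA-F, of which the last 2 leaned on the filter as given above. IFITM1, IFITM2 and IFITM3 then lay above the nearer control by 0.46, 0.48 and 0.56. With quantile normalization IFITM2 and IFITM3 stayed called and IFITM1 lay at 0.58, just under the threshold. The same 4 of 9 genes of the interferon-gamma list stayed called there, where 7.256% of all genes were. A 2-fold threshold left 0 members, 0 genes of the interferon-induced list and 0 of the interferon-gamma list, where 1.16% of all genes were called. Without probe sets of the suffixes _x_at and _s_at, which removes all IFITM probe sets, the first 2 counts were 0, where 8.14% of all genes were called. Without a filter 12 of 52 genes of the interferon-induced list and 8 of 23 of the interferon-gamma list were called, where 13.75% of all 11963 genes were. In that setting the interferon-induced list had a median of 0.012. Of its genes 2, OAS1 and HERC6, had both PNA arrays at least 1.5-fold above untreated, as did 6.77% of genes under the filter. A filter at the 75th percentile left 1 of 4 genes of the interferon-gamma list called, PSME1, where 4.505% of all genes were. Leaving the IFITM genes out of the interferon-induced list, chosen after seeing the data, gave 0 called and a median of 0.024. With the filter on the mean of the controls, also chosen after seeing the data, 2 genes of the interferon-gamma list were called, PSME1 and TAPBP, and the median of the interferon-induced list was 0.072. With the median over probe sets past the filter, PML turned to -0.29 for mutated PNA against untreated and rose to 0.84 above the nearer control, so that 4 genes of the interferon-induced list were called and its median was 0.23, while PTPN11 went to 0 and EIF2AK2 to -0.35 against the nearer control. The PML call leans on a probe set that passed the filter through its anti-MYCN PNA signal. Without probe sets of the suffixes, HLA-E lay 1.01 above the nearer control. Signals as deposited, no floor and a pseudocount of 16 left the counts called above both controls the same for the members and both lists. Of the interferon-gamma list, PSMB10 without SOCS1 had both PNA arrays at least 1.5-fold above untreated in 3 alternatives. These were the pseudocount of 16, the filter on the mean of the controls and no suffixed probe sets. With the filter at the 75th percentile neither was counted. With 1 array per condition, the number of arrays limits every value.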
